A study of Rattus norvegicus with 15 samples.

Results

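Glycogen and gluconeogenesis control genes were followed in primary rat hepatocytes exposed to flutamide, an antiandrogen drug known to injure the liver in some patients. They are 6 of the 14506 genes measured, taken by symbol from the array annotation: Gys2, Pygl, Pck1, Fbp1, Pc and Ppargc1a. All 6 were found, each on 1 probe set. Freshly isolated hepatocytes were seeded in microfluidic biochips, small culture chambers under flow, and perfused for 24 h with the DMSO solvent (5 arrays), 10 µM flutamide (6 arrays) or 100 µM flutamide (4 arrays), with 1 array per biochip. All groups shared a perfusion medium that contained insulin, per the labels' protocols, and the labels read here give neither strain nor age of the rats. The titles number the biochips 20 to 27, called run 2 here, and 10 to 16, called run 1. Run 2 held 3 DMSO, 3 10 µM and 2 100 µM arrays, and run 1 held 2, 3 and 2. The labels do not say whether a run is an isolation, an animal or a day, nor whether biochips held cells of separate animals, so each p-value reflects spread among these arrays, which may be technical.

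The liver keeps blood glucose steady by storing glucose as glycogen after meals and by releasing it in fasting, first from glycogen and then from lactate, amino acids and glycerol through gluconeogenesis. Insulin favours storage. Glucagon, acting through cyclic AMP and the transcription factor CREB, and glucocorticoids favour release, and the coactivator encoded by Ppargc1a is one of the genes that CREB switches on in fasting. Among the 6 genes, Gys2 and Pygl encode the enzymes that build and break down liver glycogen, Pc, Pck1 and Fbp1 encode steps that gluconeogenesis does not share with glycolysis, and Ppargc1a is the regulator.

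The values are log2 array signals normalized by the authors. Array medians lay between 5.38 and 5.51. All 12 hepatocyte markers were measured, and their mean log2 value was 10.96 to 11.16 in DMSO, 10.91 to 11.31 at 10 µM and 10.76 to 11.09 at 100 µM. The 14 markers of Kupffer cells and macrophages, the liver's resident phagocytes, averaged 6.13 to 7.14 in DMSO. They averaged 5.95 to 7.71 at 10 µM and 5.94 to 6.74 at 100 µM. Of them, 12 of 14 were lower at 100 µM than in DMSO, with a median log2 change of -0.26 over the list and 0 called. At 100 µM 5 of 6 measured endothelial markers were also lower, with a list median of -0.12. Higher were 7 of 7 lymphocyte, 9 of 11 stellate cell and fibroblast and 5 of 6 cholangiocyte markers, with medians of 0.04 each. In each list 0 were called. Over all genes 44.3% were lower at 100 µM, with a median change of 0.02, near those medians of 0.04. The lymphocyte, endothelial and stellate marker means reached at most 4.27, 5.23 and 5.33 on any array, under all array medians. The array of 10 µM biochip 23 held the highest Kupffer value (7.71), and also the highest hepatocyte (11.31), endothelial (5.23) and stellate (5.33) means. It had the lowest quality weight (0.205), followed by 100 µM biochip 15 (0.427). What part these shifts have in the results below was not tested, and in bulk samples fewer cells of a type and less RNA per cell cannot be told apart.

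Gys2, the liver glycogen synthase, which lengthens glycogen chains, was the gene of the 6 with the largest difference at 100 µM. In DMSO its log2 values were 7.74, 8.01 and 7.90 in run 2 and 7.49 and 7.58 in run 1. At 10 µM they spread over 6.74 to 7.75 with a median of 7.25. At 100 µM they were 6.71 and 6.78 in run 2 and 5.88 and 7.01 in run 1. Every 100 µM array therefore lay below every DMSO array, while the 10 µM arrays overlapped both groups. The group means were 6.60 ± 0.50 (SD, n = 4) at 100 µM and 7.74 ± 0.22 (SD, n = 5) in DMSO, a log2 change of -1.13 (SE 0.23, 95% interval -1.61 to -0.64, 2.18-fold lower). By limma with Benjamini-Hochberg adjustment over all 14506 genes this had an adjusted p = 0.356, so it did not pass the threshold of 0.05. At this threshold 0% of all genes passed in 100 µM against DMSO, and Gys2 ranked 8 by unadjusted p and 16 from the most negative change.

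As a mean over arrays, the Gys2 difference at 100 µM was of like size in both runs, -1.13 (SE 0.18) within run 2 and -1.09 (SE 0.42) within run 1. The test of the difference between the runs gave -0.04 (95% interval -1.07 to 0.98, adjusted p = 0.999). The run 1 mean rests on 100 µM arrays that lay far apart, biochip 15 at 5.88 and biochip 16 at 7.01, and the difference between the runs was -0.61 without biochip 15 and 0.53 without biochip 16. Without biochip 15, whose quality weight was 0.427, the change over all arrays was -0.91 (adjusted p = 0.764 by limma). At 10 µM the change was -0.48 (SE 0.21, 95% interval -0.92 to -0.04, adjusted p = 0.610 by limma), -0.67 within run 2 and -0.26 within run 1. In run 2 the 10 µM arrays (6.94 to 7.52) lay below all DMSO arrays (7.74 to 8.01), whereas in run 1 10 µM biochip 14, at 7.75, lay above both DMSO arrays. Set directly against 10 µM, 100 µM was lower by a log2 change of -0.65 (SE 0.22, adjusted p = 0.930), or -0.41 without biochip 15.

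Pygl, the liver glycogen phosphorylase, which releases phosphorylated glucose from glycogen, showed no detectable difference at either dose. In DMSO its log2 values were 8.06, 8.00 and 8.20 in run 2 and 7.93 and 8.34 in run 1. At 10 µM they ran from 7.27 through a median of 8.13 to 8.44, and at 100 µM they were 8.03 and 7.90 in run 2 and 8.14 and 8.09 in run 1. The groups overlapped throughout, and the 7.27 belonged to 10 µM biochip 23. The log2 change was -0.09 (SE 0.16, 95% interval -0.43 to 0.25, adjusted p = 0.937 by limma) at 100 µM and -0.09 (SE 0.14, 95% interval -0.40 to 0.22, adjusted p = 0.948) at 10 µM. The 10 µM value turned to 0.06 without biochip 23, and it differed in sign between run 2 (-0.29) and run 1 (0.16).

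**Figure D1:**
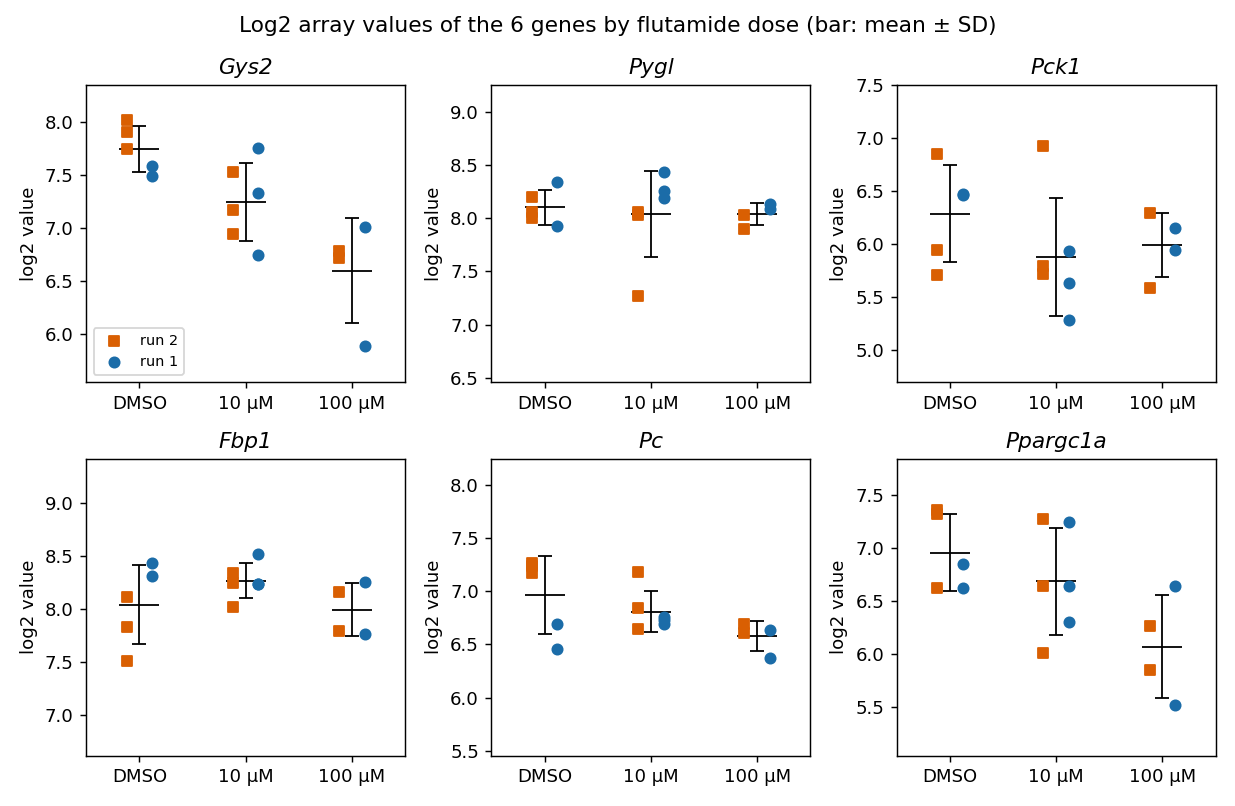
Log2 array values (vertical axis, of equal span in every panel) of the 6 genes in DMSO, 10 µM and 100 µM flutamide, each point 1 array, orange squares run 2 and blue circles run 1, with black bars for the mean ± SD of each group. Only for Gys2 do all 100 µM arrays (5.88 to 7.01) lie below all DMSO arrays (7.49 to 8.01).

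Pc, pyruvate carboxylase, which turns pyruvate into oxaloacetate in mitochondria as the first step of gluconeogenesis from lactate, lay lower at 100 µM by its run 2 values. In DMSO its log2 values were 7.27, 7.24 and 7.17 in run 2 and 6.69 and 6.46 in run 1. At 10 µM they ran from 6.65 through a median of 6.74 to 7.18. At 100 µM they were 6.69 and 6.61 in run 2 and 6.64 and 6.37 in run 1. In run 2 both 100 µM arrays lay below all DMSO arrays, and in run 1 the groups overlapped. Over all arrays the log2 change at 100 µM was -0.35 (SE 0.13, 95% interval -0.63 to -0.08, adjusted p = 0.670 by limma), -0.58 (SE 0.16) within run 2 and -0.07 (SE 0.13) within run 1.

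The DMSO arrays themselves set the runs apart for Pc, at 7.22 ± 0.05 (SD, n = 3) in run 2 and 6.57 ± 0.16 (SD, n = 2) in run 1, whereas the 100 µM arrays averaged 6.65 and 6.51. The run 2 minus run 1 difference of the 100 µM change was -0.51 (95% interval -0.98 to -0.04, adjusted p = 0.795 by limma), against a background of 0.00689% of genes called for that difference (1 gene), and 0 of the 6 genes were called. At 10 µM the Pc change was -0.12 (SE 0.12, adjusted p = 0.863), -0.34 within run 2 and 0.15 within run 1, and the difference between the runs was -0.49 (95% interval -0.91 to -0.07, adjusted p = 0.436). For that 10 µM difference 0.0414% of genes were called (6 genes), again with 0 of the 6 genes described here.

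Pck1, the cytosolic phosphoenolpyruvate carboxykinase, which converts oxaloacetate to phosphoenolpyruvate and is a classic target of glucagon and insulin, varied more among arrays of a group than between groups. In DMSO its log2 values were 5.71, 6.85 and 5.94 in run 2 and 6.47 and 6.46 in run 1. At 10 µM they ran from 5.28 through a median of 5.75 to 6.92, the highest belonging to biochip 23, and at 100 µM they were 6.29 and 5.59 in run 2 and 5.94 and 6.15 in run 1. In run 1 all arrays of both doses (5.28 to 6.15) lay below both DMSO arrays, and in run 2 the groups overlapped. The log2 change at 10 µM was -0.40 (SE 0.27, 95% interval -0.97 to 0.17, adjusted p = 0.787 by limma), -0.02 within run 2 and -0.85 within run 1. Without biochip 23 it was -0.63 (adjusted p = 0.400). The test of the difference between the runs gave 0.83 (95% interval -0.31 to 1.97, adjusted p = 0.599). At 100 µM the change was -0.28 (SE 0.30, 95% interval -0.92 to 0.35, adjusted p = 0.891), -0.22 within run 2 and -0.42 within run 1.

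Fbp1, fructose-bisphosphatase, which removes a phosphate that phosphofructokinase adds in glycolysis, moved in neither direction past its spread. In DMSO its log2 values were 7.51, 7.83 and 8.11 in run 2 and 8.43 and 8.31 in run 1. At 10 µM they ran from 8.02 through a median of 8.23 to 8.52, and at 100 µM they were 8.16 and 7.79 in run 2 and 7.76 and 8.25 in run 1. All groups overlapped. The log2 change was 0.20 (SE 0.14, 95% interval -0.10 to 0.50, adjusted p = 0.808 by limma) at 10 µM and -0.07 (SE 0.16, 95% interval -0.41 to 0.26, adjusted p = 0.950) at 100 µM. The runs pointed opposite ways at both doses, 0.38 within run 2 and -0.04 within run 1 at 10 µM, and 0.16 within run 2 and -0.37 within run 1 at 100 µM. The run 2 minus run 1 difference was 0.42 (adjusted p = 0.598) at 10 µM and 0.53 (adjusted p = 0.874) at 100 µM.

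Ppargc1a, the coactivator that raises gluconeogenic and mitochondrial genes in fasting, was the other gene of the 6 with a sizeable difference at 100 µM. In DMSO its log2 values were 7.32, 7.36 and 6.62 in run 2 and 6.62 and 6.85 in run 1. At 10 µM they ran from 6.01 through a median of 6.64 to 7.27, and at 100 µM they were 6.26 and 5.85 in run 2 and 5.52 and 6.64 in run 1. In run 2 both 100 µM arrays lay below all DMSO arrays, and in run 1 biochip 16, at 6.64, lay between the 2 DMSO arrays. The group means were 6.06 ± 0.49 (SD, n = 4) at 100 µM and 6.95 ± 0.36 (SD, n = 5) in DMSO. The log2 change at 100 µM was -0.88 (SE 0.29, 95% interval -1.50 to -0.27, 1.84-fold lower, adjusted p = 0.649 by limma), -1.04 within run 2 and -0.66 within run 1. The difference between the runs was -0.38 (95% interval -1.70 to 0.94, adjusted p = 0.994), -0.94 without biochip 15 and 0.18 without biochip 16. Biochip 15 held the lowest Ppargc1a value, 5.52, as it did for Gys2. At 10 µM the change was -0.26 (SE 0.26, 95% interval -0.82 to 0.29, adjusted p = 0.879), -0.46 within run 2 and -0.01 within run 1, and without 10 µM biochip 25 it was -0.097. Against 10 µM, 100 µM was lower by a log2 change of -0.62 (SE 0.28, adjusted p = 0.930). With array quality weights this change was -0.30 (SE 0.26), and it ranged from -0.84 to -0.22 over the alternatives recomputed.

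Gys2, Pck1 and Ppargc1a are the genes whose start-site sequence is shown, Gys2 and Ppargc1a for their lower values at 100 µM and Pck1 as the textbook gene of cyclic AMP control. The sequences are those of RefSeq on build GRCr8, 300 bases around 1 transcript start per gene, written in the direction of the gene. For Ppargc1a this start lies well inside the annotated gene, and the Fbp1 window also begins after that gene's first base, so positions are relative to the start used here and not to the outermost start of the gene. Capitals mark the cyclic AMP response element TGACGTCA, its shorter form TGACG, or the nuclear receptor core AGGTCA, on either strand. Windows were found for 5 of the 6 genes, Gys2, Pygl, Pck1, Fbp1 and Ppargc1a.
Gys2, chr4:177137187-177137486, minus strand: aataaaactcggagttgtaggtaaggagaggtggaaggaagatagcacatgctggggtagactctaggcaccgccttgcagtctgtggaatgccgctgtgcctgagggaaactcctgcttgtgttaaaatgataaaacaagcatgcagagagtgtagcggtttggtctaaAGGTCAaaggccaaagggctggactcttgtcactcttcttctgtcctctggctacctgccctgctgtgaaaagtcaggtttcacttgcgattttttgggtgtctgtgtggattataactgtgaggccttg
Pck1, chr3:182348322-182348621, plus strand: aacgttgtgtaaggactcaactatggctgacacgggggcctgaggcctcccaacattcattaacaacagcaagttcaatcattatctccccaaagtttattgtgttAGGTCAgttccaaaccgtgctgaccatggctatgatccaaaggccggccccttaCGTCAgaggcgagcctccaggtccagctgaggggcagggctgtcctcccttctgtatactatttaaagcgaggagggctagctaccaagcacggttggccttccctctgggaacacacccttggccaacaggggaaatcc
Ppargc1a, chr14:63634058-63634357, plus strand: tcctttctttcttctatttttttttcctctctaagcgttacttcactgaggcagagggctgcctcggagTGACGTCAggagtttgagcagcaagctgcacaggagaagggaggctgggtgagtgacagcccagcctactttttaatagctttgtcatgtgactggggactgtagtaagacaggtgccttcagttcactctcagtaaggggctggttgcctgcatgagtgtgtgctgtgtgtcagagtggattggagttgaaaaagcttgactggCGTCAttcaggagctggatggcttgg
The full element TGACGTCA was found in Ppargc1a alone among the 5 windows, from -181 to -174 relative to the start, and 1.83% of 33469 rat windows of the same length hold it. The shorter TGACG lay in Ppargc1a (inside the full element on both strands, and from 25 to 29 after the start on the minus strand) and in Pck1 (from -90 to -86, minus strand), against 21.2% of all windows. The core AGGTCA, searched after the sequences were seen, lay in Gys2 (from -80 to -75) and Pck1 (from -144 to -139), against 16.2% of all windows. The FOXO letters GTAAACA (3.78% of windows), the E-box CACGTG (6.42%), TATAAA (14.2%) and the palindromic glucocorticoid response element (0.0149%) were in none of the 5 windows. A match is a description of these letters and not a site shown to be bound.

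Read together by run, 5 of the 6 genes were lower at 100 µM in both runs, Fbp1 being the exception, where 21.8% of all genes were. The values behind that count differ in weight, since within run 1 Pygl was at -0.02 and Pc at -0.07. At 10 µM 3 of the 6, Gys2, Pck1 and Ppargc1a, were lower in both runs, against 20.3% of all genes, and there Ppargc1a was at -0.01 within run 1 and Pck1 at -0.02 within run 2. Gys2 was the 1 gene of the 6 whose 100 µM arrays all lay below all DMSO arrays, which held for 0.931% of all genes, and also the 1 gene for which they lay below the DMSO arrays of their own run in both runs, which held for 1.96%. At 10 µM these 2 counts were 0 of 6, against 0.221% and 0.531% of all genes. At an unadjusted p under 0.05 by limma 3 of the 6 genes were lower at 100 µM (Gys2, Pc and Ppargc1a) and 1 was lower at 10 µM (Gys2), against 3.42% and 3.82% of all genes. After adjustment over all genes 0 of the 6 passed at 10 µM, at 100 µM or between the doses, where 0% of all genes passed in each comparison. The 3 comparisons share arrays, so their values are not independent of each other. The 6 genes were chosen with earlier results of these data known, so the counts set beside all genes describe them and are not a test.

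**Figure D2:**
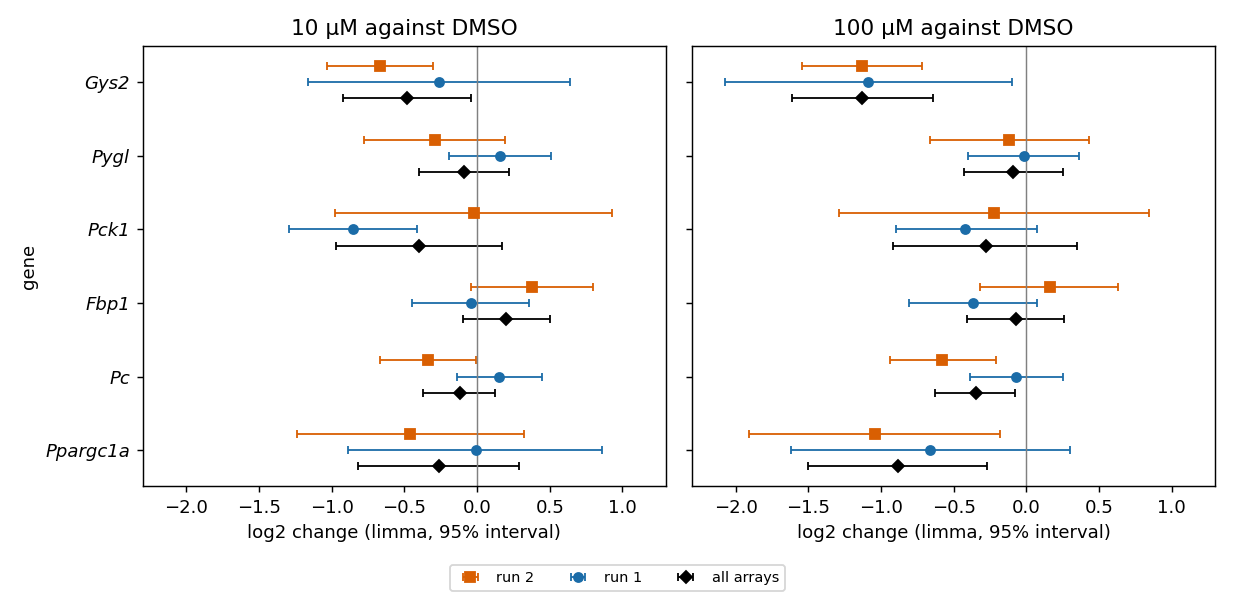
Log2 change against DMSO (horizontal axis, limma estimate with its 95% interval) of the 6 genes at 10 µM (left) and 100 µM (right), for run 2 (orange squares), run 1 (blue circles) and all arrays (black diamonds). At 100 µM the Gys2 intervals of both runs lie below 0, at -1.13 in run 2 and -1.09 in run 1, while Pc is at -0.58 in run 2 and -0.07 in run 1.

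The runs were also compared in level, as an average over the dose groups. Run 2 was higher than run 1 for Pc by a log2 difference of 0.31 (SE 0.10, adjusted p = 0.216 by limma) and lower for Pygl by -0.26 (SE 0.12, adjusted p = 0.457, and -0.15 without 10 µM biochip 23) and for Fbp1 by -0.24 (SE 0.12, adjusted p = 0.503). The differences for Gys2 (0.17), Pck1 (0.09) and Ppargc1a (0.08) were smaller than their standard errors of 0.18, 0.23 and 0.22. None of the 6 passed, where 0.545% of all genes did (79 genes). These averages hide unequal gaps: Fbp1 in DMSO averaged 7.82 in run 2 and 8.37 in run 1 but 7.98 and 8.00 at 100 µM, and Pygl at 10 µM averaged 7.79 in run 2 and 8.30 in run 1 but 8.08 and 8.14 in DMSO.

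The wider pathway was described through 8 lists holding 145 genes, of which 130 were measured, the 6 genes included. After adjustment over all genes 0 members passed at either dose. At 100 µM 87 of 130 (66.9%) were lower than in DMSO, with a median log2 change of -0.09, against 44.3% and a median of 0.02 over all genes. At 10 µM 80 (61.5%) were lower, with a median of -0.07, against 50.9% and 0.00 over all genes. At an unadjusted p under 0.05 there were 11 of the 130 genes (8.5%) at 100 µM, near the 6.85% of all genes, and 15 (11.5%) at 10 µM, against 7.65% of all genes. The lists, too, were chosen with earlier results of these data known. Of the 12 hepatocyte markers, some of which are also on these lists, 7 were lower at 100 µM (median -0.04). At 100 µM the median of each list was more negative in run 2 than in run 1. These medians were -0.08 and -0.04 for gluconeogenic steps, -0.24 and 0.02 for substrate entry, and -0.39 and -0.04 for genes that fasting hormones raise. Over all genes the run 2 minus run 1 difference of the 100 µM change had a median of -0.01, with 51.1% below 0.

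Around Gys2, the glycogen synthesis list had 9 of 14 measured genes lower at 100 µM (median -0.08) and 6 of 14 at 10 µM (median 0.01). Gbe1, the branching enzyme, was at -0.34 (SE 0.16) at 100 µM, -0.45 within run 2 and -0.18 within run 1. Ugp2, which makes the UDP-glucose that the synthase uses, was at -0.29 (SE 0.17) at 100 µM and -0.37 (SE 0.16) at 10 µM, and at both doses its lower values lay in run 2 (-0.46 and -0.70) and not in run 1 (-0.02 and 0.04). Gys1, the synthase of muscle and most other tissues, was not lower: its change was 0.17 (SE 0.18) at 100 µM and 0.40 (SE 0.16, adjusted p = 0.575 by limma) at 10 µM. Ppp1r3b, the glycogen-targeting subunit of protein phosphatase in liver, was at 0.02 (SE 0.25) and 0.01 (SE 0.22) at 100 and 10 µM. Nhlrc1, a ubiquitin ligase mutated in Lafora disease, was at 0.34 (SE 0.19) at 100 µM, on a log2 level of 4.8 to 5.91 over all arrays.

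Around Pygl, the breakdown list had 4 of 7 genes lower at both doses, with a median of -0.09 each time. Pygb and Pygm, the brain and muscle phosphorylases, were at 0.27 (SE 0.23) and 0.13 (SE 0.10) at 100 µM, and Pygm was at 0.27 (SE 0.09, adjusted p = 0.484 by limma) at 10 µM. The Pygm log2 values of 3.65 to 4.43 over all arrays lay under the array medians. Gaa, the lysosomal glucosidase that degrades glycogen, was at -0.27 (SE 0.19) at 100 µM, -0.52 within run 2 and 0.09 within run 1. Phka1, a phosphorylase kinase subunit, was at -0.37 (SE 0.22), -0.47 within run 2 and -0.20 within run 1.

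**Figure D3:**
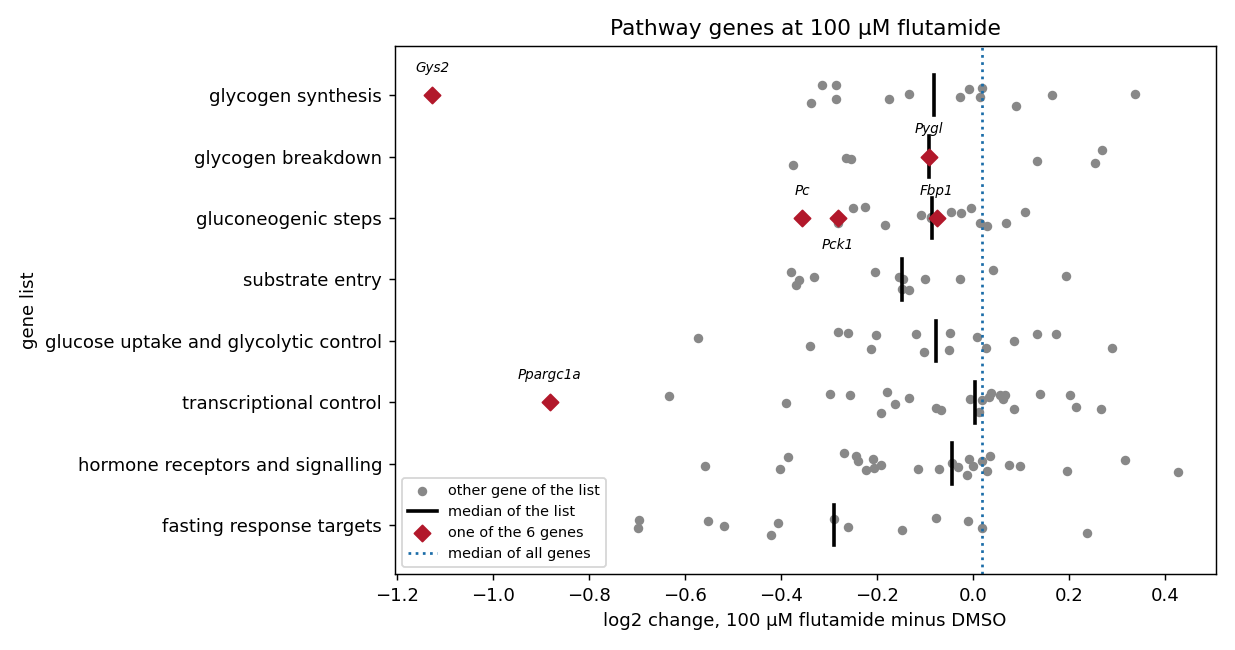
Log2 change of 100 µM flutamide minus DMSO (horizontal axis) for the measured genes of 8 pathway lists (rows), with grey points for single genes, red diamonds for the 6 genes described here, black bars for list medians and a dotted line for the median of all genes (0.02). Gys2 (-1.13) and Ppargc1a (-0.88) lie at the low end of their lists, while Pygl (-0.09) lies at the median of its list.

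Among gluconeogenic steps 14 of 18 measured genes were lower at each dose, with medians of -0.08 at 100 µM and -0.06 at 10 µM. G6pc1, the glucose 6-phosphatase that completes glucose release, was at 0.07 (SE 0.11) at 100 µM and -0.03 (SE 0.10) at 10 µM, and its log2 values of 4.54 to 4.95 over all arrays lay under the array medians. Slc37a4, the transporter that feeds it, was at -0.22 (SE 0.14) at 100 µM, with -0.24 within run 2 and -0.21 within run 1. Pck2, the mitochondrial form of phosphoenolpyruvate carboxykinase, was at -0.28 (SE 0.17), with -0.26 and -0.27 in runs 2 and 1. Mdh1, the cytosolic malate dehydrogenase, was at -0.25 (SE 0.14), with -0.48 and 0.03.

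In the list of substrate entry, which covers the routes from lactate, alanine and glycerol, 11 of 13 genes were lower at 100 µM (median -0.15) and 8 of 13 at 10 µM (median -0.12). Gpt, alanine aminotransferase, was at -0.36 (SE 0.13, adjusted p = 0.663 by limma) at 100 µM and -0.29 (SE 0.12) at 10 µM, and at 100 µM it was alike in run 2 (-0.43) and run 1 (-0.30). Gpd1, the cytosolic glycerol phosphate dehydrogenase, was at -0.38 (SE 0.20), -0.19 within run 2 and -0.60 within run 1. Sds, serine dehydratase, was at 0.19 (SE 0.09) on a log2 level of 4.68 to 5.31.

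The opposing branch of glucose uptake and glycolytic control had 10 of 16 genes lower at each dose, with medians of -0.08 at 100 µM and -0.06 at 10 µM. Mlxipl, the carbohydrate-response factor ChREBP, had the lowest p of this list, at -0.57 (SE 0.13, adjusted p = 0.436 by limma) at 100 µM, -0.70 within run 2 and -0.42 within run 1. Khk, ketohexokinase of fructose use, was at -0.34 (SE 0.17), -0.08 within run 2 and -0.61 within run 1. Hk2, a hexokinase of extrahepatic tissues, was at 0.17 (SE 0.08) on a log2 level of 3.98 to 4.48.

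Of the 24 measured transcriptional regulators, Ppargc1a among them, 12 were lower and 12 higher at 100 µM (median 0.00), and 16 were lower at 10 µM (median -0.07). Foxo1, the insulin-restrained factor that drives gluconeogenic genes, was at -0.18 (SE 0.09) at 100 µM and -0.19 (SE 0.08) at 10 µM, lower in both runs at both doses, with values within runs of -0.23 to -0.13. Ppara, the fatty acid receptor, was at -0.63 (SE 0.30) at 100 µM, -0.18 within run 2 and -1.20 within run 1. Hnf4a, a nuclear receptor of hepatocyte identity, was at -0.39 (SE 0.22) at 100 µM and -0.62 (SE 0.20) at 10 µM, with the lower values in run 2 (-0.61 and -1.14) and not in run 1 (-0.04 and 0.02). Crtc2, a CREB coactivator, was at 0.27 (SE 0.22) at 100 µM, -0.01 within run 2 and 0.62 within run 1.

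Among hormone receptors and signalling genes, 16 of 25 lay lower at 100 µM (median -0.04) and 13 of 25 at 10 µM (median -0.03). Irs1, an adaptor of the insulin receptor, was at -0.56 (SE 0.17, adjusted p = 0.649 by limma) at 100 µM, and the value was -0.55 in each run. Insr, the insulin receptor, was at 0.03 (SE 0.25) and Gcgr, the glucagon receptor, at -0.24 (SE 0.16), with Gcgr at -0.49 within run 2 and 0.07 within run 1. Prkacb, a catalytic subunit of the cyclic AMP-dependent kinase, was at 0.43 (SE 0.25), 0.12 within run 2 and 0.82 within run 1. Prkaa2, a catalytic subunit of the AMP-activated kinase, was at -0.22 (SE 0.13), -0.43 within run 2 and 0.05 within run 1.

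Of 13 genes that fasting hormones raise in liver, 11 lay below DMSO at 100 µM, with the most negative median of the 8 lists (-0.29), and 9 did so at 10 µM (median -0.22). By run the 100 µM median was -0.39 in run 2 and -0.04 in run 1. Arg1, arginase of the urea cycle, was at -0.70 (SE 0.30) at 100 µM, -1.10 within run 2 and -0.21 within run 1. Angptl4, a lipoprotein lipase inhibitor, was at -0.52 (SE 0.19), -0.91 within run 2 and -0.04 within run 1. Fkbp5, a glucocorticoid-induced chaperone partner, was at -0.55 (SE 0.25), -0.25 within run 2 and -0.86 within run 1. Igfbp1, an insulin-repressed secreted protein, was at -0.42 (SE 0.22), -0.74 within run 2 and -0.06 within run 1. Tat, the glucocorticoid-induced tyrosine aminotransferase, was at -0.29 (SE 0.29), -0.39 within run 2 and -0.17 within run 1. Pdk4, a kinase that spares pyruvate, was at -0.15 (SE 0.41), -0.50 within run 2 and 0.16 within run 1. Its log2 values spread over 9.17 to 12.27 among all arrays.

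Likeness to each gene was measured by Pearson correlation of log2 values centred within each run, over the 15 arrays, which share dose groups, run and array quality, and the 3 genes of highest r are named without a test. For Gys2 these were Kynu, kynureninase of tryptophan breakdown (r = 0.89), Ccdc107 (0.87) and Ttpa, the alpha-tocopherol transfer protein (0.87). At 100 µM their changes were -1.50 (SE 0.29), -0.65 (SE 0.15) and -0.97 (SE 0.27), and like Gys2 they had their lowest run-centred value in biochip 15. For Ppargc1a they were Hipk2 (0.94), Ccni (0.93) and Wwtr1 (0.93), with changes at 100 µM of -0.36 (SE 0.14), -0.32 (SE 0.15) and -0.26 (SE 0.13). For Pygl they were Tmem97, Fads1 and Ash2l (0.92 each), for Pc Tor1a (0.86), Taok3 (0.86) and Ppp2r1b (0.84), for Pck1 Gpr34 (0.89), Vps18 (0.86) and Mapk10 (0.84), and for Fbp1 Rnf24 (0.87), Myo9a (0.86) and Cox18 (0.83). Pygl had its lowest value (7.27) and Pck1 its highest (6.92) in 10 µM biochip 23, and r without that array was not computed. None of the 6 genes stood among the 3 most like another, a rank among all genes that does not show whether the 6 vary together. Between pairs of the 6, r ran from -0.58 (Pygl and Pck1) to 0.62 (Gys2 and Ppargc1a).

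**Figure D4:**
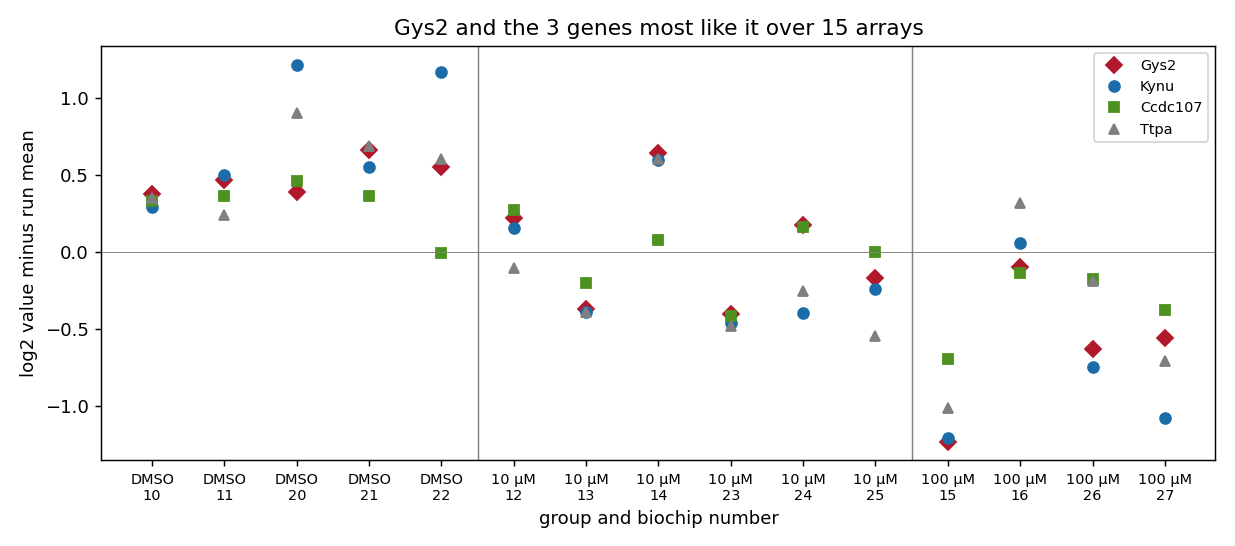
Log2 value minus the mean of the run (vertical axis) of Gys2, Kynu, Ccdc107 and Ttpa in each array (horizontal axis, dose group and biochip number). All 4 genes are lowest in 100 µM biochip 15, where Gys2 is at -1.23, and the Gys2 values of 100 µM biochip 16 (-0.10) and 10 µM biochip 14 (0.64) lie above those of the other arrays of their group.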

How the data were processed

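Expression was measured on 15 Affymetrix rat arrays, 1 per biochip. The authors deposited log2 expression values per probe set, and the submitters' processing notes name RMA and Partek, with versions and settings not given in the sources used here. RMA pulls arrays to a common distribution, so a shift shared by all genes would not be seen. Of 29214 probe sets, 15310 held 1 gene symbol in the platform annotation, 15279 of them matched to RefSeq (GRCr8) for current names, and the probe set of highest mean stood for a gene, which left 14506 genes. Columns of other samples numbered 0. Arrays have no read depth, so their number limits the precision.

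Groups were compared by limma (version 3.58.1, R 4.3.3), fitted to the 15 arrays with run as a 2-level block and 11 residual degrees of freedom, and p-values were adjusted by Benjamini-Hochberg over all genes. Runs were compared in a fit of 6 group-by-run cells. The code was tested on simulated data. Named genes are the 6, the 3 of lowest p at 100 µM in each of 8 lists, and 16 fixed genes, of which 13 were measured. The 6 genes, the lists and the rule were chosen with earlier results of these data known.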

Additional observations from a re-analysis of the deposited data

Results flagged for a closer look

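Over 18 sets of a gene and a dose group, 2 arrays stood apart by Dixon's test, and chance flags about 1 set in 20. Pygl in 10 µM biochip 23 was at 7.27, with the next array of that group at 8.03. Pc in 10 µM biochip 24, a run 2 array, was at 7.18, with the next at 6.84. Their quality weights were 0.205 and 0.549, and 100 µM biochip 15, not among these 2 arrays, had 0.427.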

How the results depend on the processing

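For the 6 genes, 468 values were recomputed under alternatives for the 3 dose comparisons: 445 kept their direction and side of the threshold, 23 changed sign and 0 passed it. Part of the 445 could not change direction. Each of the 6 genes has 1 probe set, so averaging probe sets returned the same change, as did leaving out dim genes. For 100 against 10 µM, leaving out a DMSO array also returned the same change. The 445 is therefore not a measure of robustness. Gys2 at 100 µM stayed between -1.30 and -0.91 with adjusted p of 0.105 to 0.933, and Ppargc1a between -1.09 and -0.66 with 0.327 to 0.991. Within run 1 at 10 µM, Pygl was at 0.16, Fbp1 at -0.045 and Pc at 0.15. Within run 2, 7 genes were called at 10 µM and 1 at 100 µM, Fbp1 was at 0.16 at 100 µM, and for 100 against 10 µM Pygl was at 0.18 and Pck1 at -0.20. With array quality weights 1 gene was called at 10 µM, 191 between runs, and 17 and 4 for the run difference of the 10 µM and 100 µM changes. There Pygl was at 0.011 at 10 µM, Fbp1 at 0.022 at 100 µM, and Pck1 and Ppargc1a at -0.072 and -0.12 between runs. After quantile normalization again, 1 gene was called at 10 µM, and 3 and 2 for the run differences at 10 and 100 µM. Pygl was then at 0.0016 for 100 against 10 µM, and the run differences at 100 µM of Gys2 and Pygl were 0.098 and 0.042. Without the 3 arrays of lowest weight, Pygl was at 0.080 at 10 µM, Fbp1 at 0.049 at 100 µM, and Pck1 and Ppargc1a at -0.14 and -0.19 between runs. Alternatives for run 2 against run 1 were chosen after seeing the data, and the cause of these changes was not tested.

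Leaving out each array in turn, genes called ran from 0 to 1 at 10 µM, stayed at 0 at 100 µM, and ran from 37 to 129 between runs. For the run difference they ran from 2 to 116 at 10 µM (116 without 10 µM biochip 25) and from 0 to 22 at 100 µM (22 without 100 µM biochip 16). Pygl ran from -0.19 to 0.062 at 10 µM and from -0.14 to 0.054 for 100 against 10 µM, Fbp1 from -0.19 to 0.046 at 100 µM, and Pck1 from -0.003 to 0.34 for 100 against 10 µM. Between runs, Pck1 ran from -0.089 to 0.18 and Ppargc1a from -0.026 to 0.20. The run difference of the 100 µM change ran from -0.61 to 0.53 for Gys2, -0.30 to 0.11 for Pygl, -0.15 to 0.54 for Pck1 and -0.94 to 0.18 for Ppargc1a. No paired analysis was possible because the groups share no replicate number. All 6 genes passed a filter that kept the 7253 genes of higher mean signal. The cut was a mean log2 value of 5.79, and Pck1 lay near it, with group means of 5.88 at 10 µM, 5.99 at 100 µM and 6.28 in DMSO.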
